A study of Homo sapiens with 6 samples.

Results

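The genes described here are CD44 and 7 other genes of hyaluronan biology, namely HMMR, HAS1, HAS2, HAS3, HYAL1, HYAL2 and CEMIP, out of 24135 annotated genes. They were chosen for their known roles in hyaluronan synthesis, binding and breakdown. For each gene, the ChIP-seq regions that overlapped the gene body or the 5 kb upstream of it in the hg19 build were taken from 4 lists of regions. The cells were HSC3, an established oral squamous cell carcinoma (OSCC) line, in all libraries. They were transfected with a control siRNA (siCONT) or with siDLEU1, the siRNA named siDLEU1-2 in the study, against the long noncoding RNA DLEU1, and were collected 72 h later. Histone H3 lysine 27 acetylation (H3K27ac) and histone H3 lysine 4 trimethylation (H3K4me3) were profiled with 1 library for each siRNA and mark. There is no replicate and no test, so the differences below compare single libraries, and the knockdown itself cannot be checked in lists that hold no RNA.

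Hyaluronan is a long sugar polymer of the pericellular matrix. HAS1, HAS2 and HAS3 are the membrane synthases that make it, CD44 and HMMR (also called RHAMM) are receptors that bind it, HYAL1 and HYAL2 are hyaluronidases that cut it, and CEMIP is required for its breakdown at the cell surface. CD44 is strongly expressed by squamous epithelia and is widely used as a marker of tumour-initiating cells in head and neck cancer. H3K4me3 is typical of transcription start sites (TSSs), and H3K27ac of active promoters and enhancers.

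The 250 bases just upstream of the outermost annotated start are shown for 3 of the genes, from the GRCh37 reference and 5′ to 3′ on the strand of the gene. CD44 (chr11:35160179-35160428, plus strand) is shown as the gene with the most H3K4me3 regions, HAS1 (chr19:52227245-52227494, minus strand) as a synthase with no region, and CEMIP (chr15:81071434-81071683, plus strand) as the start richest in CpG among these 3. Capitals mark matches to a GC box (GGGCGG), to a CCAAT box, or to the core of a cell cycle homology region (TTTGAA), which were searched for on both strands, so that a match on the other strand appears as its reverse complement.
CD44: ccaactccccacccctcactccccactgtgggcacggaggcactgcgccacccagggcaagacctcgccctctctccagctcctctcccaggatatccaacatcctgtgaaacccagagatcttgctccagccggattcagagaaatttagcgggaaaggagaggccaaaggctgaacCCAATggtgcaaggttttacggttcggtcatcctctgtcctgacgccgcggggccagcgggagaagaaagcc
HAS1: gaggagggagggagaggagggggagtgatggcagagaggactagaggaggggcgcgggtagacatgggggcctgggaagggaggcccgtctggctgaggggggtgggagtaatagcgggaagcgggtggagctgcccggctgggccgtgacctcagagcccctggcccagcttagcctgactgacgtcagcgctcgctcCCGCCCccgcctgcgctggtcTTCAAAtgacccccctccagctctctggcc
CEMIP: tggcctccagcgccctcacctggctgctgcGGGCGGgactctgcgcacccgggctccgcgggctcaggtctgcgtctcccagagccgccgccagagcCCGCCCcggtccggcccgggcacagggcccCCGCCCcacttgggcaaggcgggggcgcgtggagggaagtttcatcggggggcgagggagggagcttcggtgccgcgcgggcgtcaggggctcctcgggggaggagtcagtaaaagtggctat

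CEMIP had 26 CpG dinucleotides in these 250 bases and 3 GC boxes, whereas CD44 had 11 and HAS1 13, against a median of 12 over 24132 genes. The median was 17 for genes with an H3K4me3 region in siCONT cells and 4 for genes without one. Thus HAS1, which had no region, had more CpG here than CD44, which had both marks. The CD44 sequence held a CCAAT box, a motif found upstream of 32.9% of all genes. A GC box, found in 44.9% of genes, was present in HAS1 and CEMIP, and the TTTGAA motif, found in 12.5% of genes, in HAS1. Upstream of these 3 genes there was no TATA box (TATAAA), no AP-1 element, which was searched for as TGANTCA, and no match to the core of an interferon-stimulated response element, and the shares over all genes were 10.5%, 6.19% and 3.0%. A match, or its absence, only describes these letters.

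Each list gives a region's position and its fold enrichment over the local background. Because this value depends on the library and its control, it was used only as a percentile rank within its list, where 100 is the strongest region and 0 means no region. The number of fragments at the summit of each region was recovered from the fold enrichment and its p, and divided by the recovered library size in M reads to give fragments per M reads. The lists held 19705 (siCONT) and 17672 (siDLEU1) H3K27ac regions and 58582 and 56943 H3K4me3 regions, from libraries of 21.5 M, 29.4 M, 28.4 M and 22.3 M reads. Over the 15334 siCONT H3K27ac regions that were also called in siDLEU1, fragments per M reads in siDLEU1 were 0.584 of those in siCONT at the median, and over 44741 H3K4me3 regions the median ratio was 1.13. The ratios of the members are therefore set against these medians. All 9 squamous epithelial markers examined, including KRT5 and TP63, carried both marks at a TSS in all 4 lists, while of 4 leukocyte, 3 endothelial, 4 fibroblast and 2 hepatocyte markers only CD14 and COL1A1 did.

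Of the 8 members, 6 had a region of each mark and 2, HAS1 and HAS2, had none in any list. Of all 24135 genes, 14415 had an H3K27ac region in either list and 16022 an H3K4me3 region. In H3K27ac, the windows held 9 regions in siCONT cells and 10 in siDLEU1 cells, and all of them were overlapped in the other list (9 of 9, 95% Wilson interval 70.1 to 100%, and 10 of 10, 72.2 to 100%). Over the whole lists, 22.2% of siCONT regions and 1.24% of siDLEU1 regions were not overlapped. When an overlap of 50% of both regions was required, 8 of 9 and 8 of 10 member regions were overlapped, and no list share was computed there. In H3K4me3, the windows held 42 and 33 regions. Of these, 12 of 42 in siCONT were not overlapped, against 23.6% of the list, and 5 of 33 in siDLEU1 were not, against 21.2%. The 12 unmatched siCONT regions had a median percentile of 14.0 (range 0.385 to 56.4, against a median of 21.7 for all unmatched siCONT regions) and a median width of 246.5 bp, and 8 of them lay in CD44. The intervals cover the counting of regions only.

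The covered length, the number of bases under regions, was lower in siDLEU1 by at least 1.5-fold for HAS3 and for no other member. In H3K27ac, 1 of 6 members (HAS3) was lower by 1.5-fold, against 32.3% of 14415 genes, and 0 were higher, against 0.652%. In H3K4me3, 1 of 6 (HAS3) was lower, against 16.9% of 16022 genes, and 0 were higher, against 10.3%. The median covered length ratio of the members, siDLEU1 over siCONT, was 0.901 for H3K27ac and 0.753 for H3K4me3, and over all genes 0.776 and 0.902. Summed over the 408 kb of the 8 windows, H3K27ac covered 8.55 kb in siCONT and 7.15 kb in siDLEU1, a ratio of 0.836, with median region widths of 1001 and 622.5 bp. H3K4me3 covered 37.1 and 32.3 kb, a ratio of 0.870, with median widths of 676.5 and 575 bp, and without CD44 the ratio was 0.708. Without HAS3 the ratios were 0.930 and 0.893. The whole lists covered 17.3 Mb in siCONT and 12.4 Mb in siDLEU1 for H3K27ac, and 45.2 and 41.4 Mb for H3K4me3.

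The percentile of the strongest H3K27ac region of the window was at least 10 points lower in siDLEU1 for 3 of 6 members (CD44, HAS3 and HYAL1), against 36.8% of genes, and at least 10 points higher for 1 (HYAL2), against 16.5%. For H3K4me3 it was lower for 1 of 6 (HAS3), against 17.7% of genes, and higher for 0, against 20.8%. The median change over the members was -4.37 points for H3K27ac and -2.70 for H3K4me3, beside -4.72 and 0.486 over all genes. In H3K27ac, CD44, HAS3 and HYAL1 ranked lower by fold enrichment, while HMMR, CEMIP and HYAL2 ranked higher by 2.83, 6.64 and 45.5 points. With CD44, HAS3 or HYAL1 left out the H3K27ac median was 2.83, an outcome that this split fixed in advance. Ranked by fragments instead, CEMIP changed by -9.25 points, while HMMR and HYAL2 changed by 1.28 and 11.1. Leaving out a member that ranked higher was not run, and the median gave no firm direction. With the gene body alone as the window the H3K4me3 median was 0.166.

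**Figure D1:**
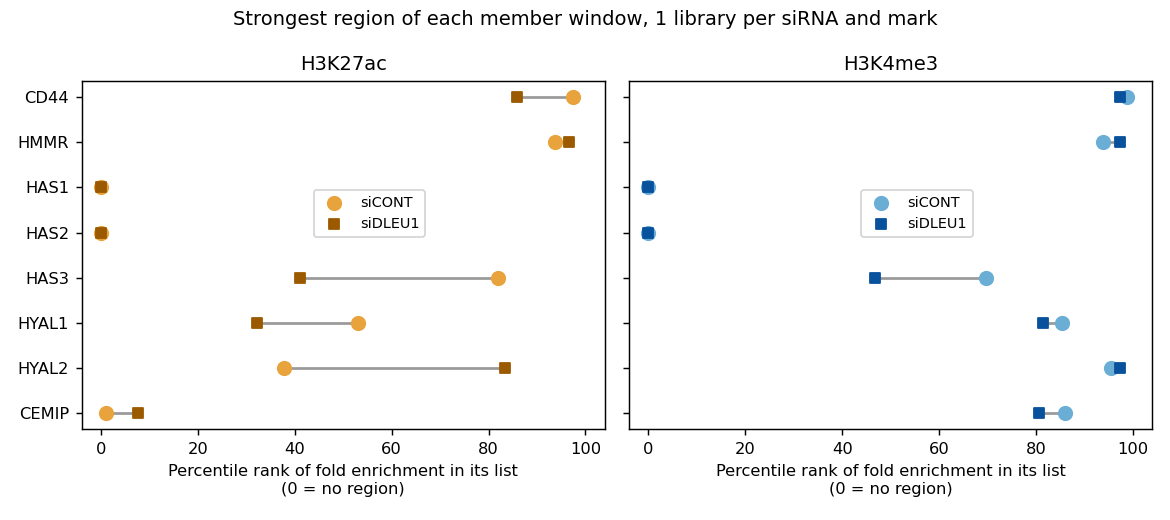
Percentile rank (x axis, 0 for no region) of the strongest H3K27ac (left) and H3K4me3 (right) region in the window of each of the 8 members (y axis), in siCONT (circles) and siDLEU1 (squares), with 1 library each. HAS3 stood at 82.0 and 41.1 in H3K27ac and at 69.8 and 46.8 in H3K4me3, HYAL2 stood higher in siDLEU1 in H3K27ac through a region at the start of a neighbouring gene, and HAS1 and HAS2 were at 0.

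CD44, the principal hyaluronan receptor (chr11:35160429-35253949, plus strand, 93.5 kb), carried a single H3K27ac region at its start in both libraries. In siCONT cells this region ran from 35160312 to 35161848 (1537 bp), over exon 1 and the beginning of intron 1, and ranked at percentile 97.4 with 174 fragments at its summit. In siDLEU1 cells it ran from 35160406 to 35162069 (1664 bp) and ranked at 85.8 with 134 fragments. The region was thus about as wide, and its percentile changed by -11.6 points. Fragments per M reads were 8.10 and 4.56, a ratio of 0.563 (95% counting interval 0.446 to 0.709), which is 0.963 of the median over all shared regions. The local background at the summit was 1.39 times the genome background in siCONT and 2.41 times in siDLEU1, and ranked by fragments instead of fold enrichment CD44 stood at 97.0 and 95.7. The change was -7.19 points by −log10 p and -1.30 by fragments, both short of 10. The difference in rank was thus larger by fold enrichment than by fragments, and the part of the background in it was not tested. In both lists the region also covers an annotated start of CD44-DT, a divergent transcript, and the reads cannot be assigned to either gene.

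H3K4me3 spread far into CD44. The window held 26 regions in siCONT and 19 in siDLEU1, covering 23.2 and 22.4 kb, which is 23.5% and 22.8% of the window. Among genes with an H3K4me3 region, 99.5% had fewer regions than CD44 in siCONT and 98.9% in siDLEU1. Among 1836 and 1858 of them whose window was within 25% of the length of that of CD44, the median was 3 regions, and 99.8% and 99.1% had fewer. The region over the first TSSs ranked at 98.7 in siCONT and 97.4 in siDLEU1. It was 3609 bp wide with 199 fragments in siCONT and 2199 bp wide with 196 fragments in siDLEU1, a ratio per M reads of 1.26 (1.03 to 1.54), or 1.11 of the median. The siCONT region was overlapped by a further siDLEU1 region of 1691 bp, and the 2 siDLEU1 regions covered 3353 of its 3609 bp, so the difference in width was largely a split of the region.

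Most of the H3K4me3 lay in intron 1, which is 37.2 kb long. Besides the region at the TSS, 18 regions in siCONT and 14 in siDLEU1 had their summit there, with a median percentile of 27.1 and 52.1. Past the end of the siCONT region at the TSS, H3K4me3 covered 15.8 kb of the intron in siCONT and 17.6 kb in siDLEU1. None of these overlapped an H3K27ac region in either list. The regions past intron 1 covered 3.74 kb in siCONT (7 regions) and 1.48 kb in siDLEU1 (4 regions). The siDLEU1 list thus held fewer regions in CD44 but more covered length in intron 1 and less beyond it.

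The longest region within CD44 was called in siDLEU1, in a stretch of intron 1 from 23387 to 29601 bp past the gene start. This H3K4me3 region ran from 35183816 to 35190030 (6215 bp), with 142 fragments at its summit. In siCONT cells the same stretch held 5 separate regions with 37, 48, 52, 65 and 55 fragments. Against the strongest of these, the ratio of fragments per M reads was 2.78 (2.06 to 3.79), 2.46 of the median, and 96.2% of shared regions had a lower ratio. The background at the summit was 1.88 times the genome background in siCONT and 6.47 times in siDLEU1. In the opposite direction, the region from 35237708 to 35238959 in intron 15 had 53 fragments in siCONT and 21 in siDLEU1, a ratio of 0.505 (0.289 to 0.851).

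**Figure D2:**
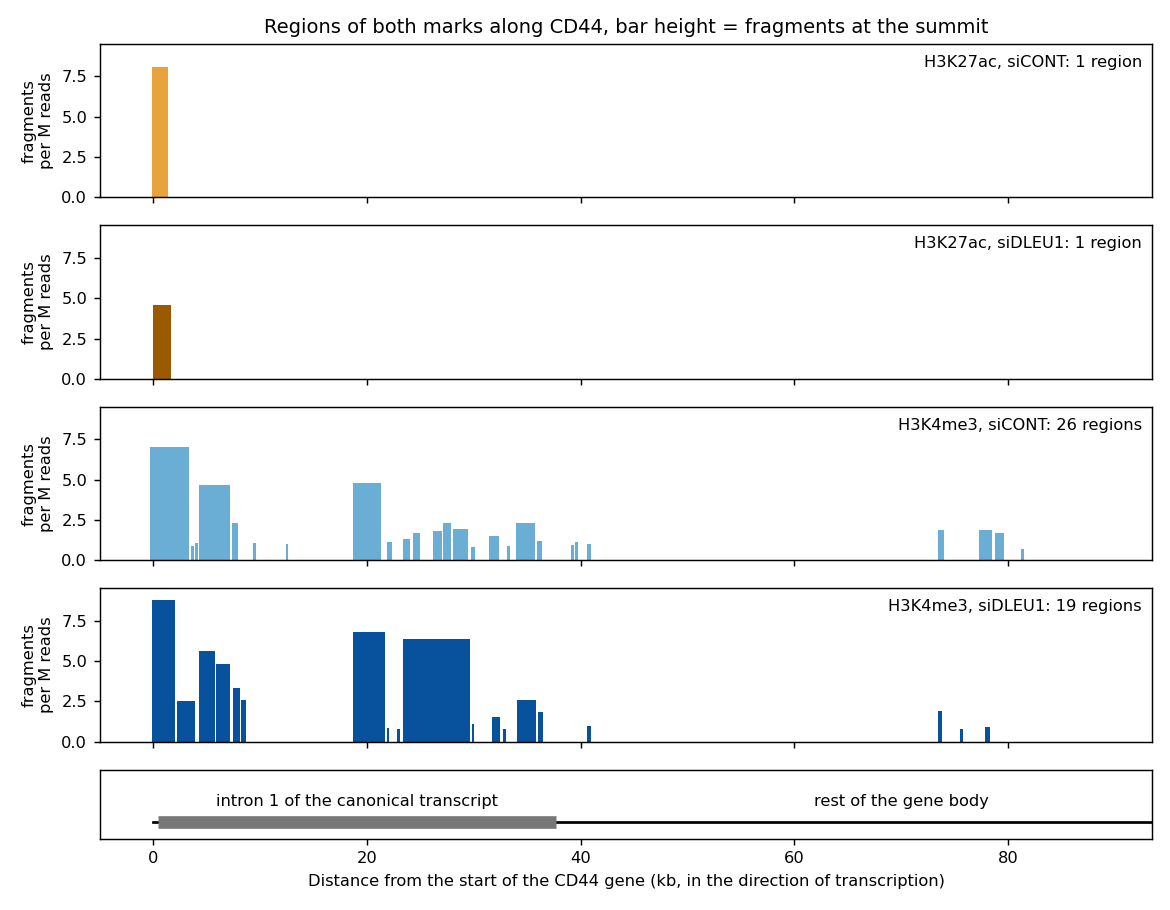
Regions of H3K27ac (upper 2 tracks) and H3K4me3 (lower 2 tracks) along CD44, with distance from the gene start in kb on the x axis; each bar spans a region and its height is the fragments per M reads at the summit only. H3K27ac is a single region at the start, whereas H3K4me3 extends through intron 1 (grey bar), where the 6215-bp region of siDLEU1 spans 5 narrower regions of siCONT.

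The 5 genes whose covered lengths in the 4 lists were closest to those of CD44, by Euclidean distance of log2(covered bp + 100) over 4 lists, were HK1 (0.320), MRTFA (0.328), TSPAN14 (0.354), PXN (0.369) and WWC1 (0.383). Each had between 20 and 31 H3K4me3 regions in siCONT and from 1 to 3 H3K27ac regions. HK1 encodes a hexokinase, MRTFA a coactivator of serum response factor, and PXN the focal adhesion protein paxillin.

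HMMR (chr5:162887209-162918947, plus strand), an intracellular and cell surface hyaluronan receptor with a role at the mitotic spindle, starts close to NUDCD2, which has a TSS under the same upstream region in all 4 lists. Both marks lay over the outermost HMMR start and again within intron 1, with a gap between them over the canonical TSS at 162887638. In H3K27ac, the upstream region was 1325 bp wide in siCONT, at percentile 93.8 with 142 fragments, and 1209 bp wide in siDLEU1, at 96.6 with 118 fragments. The ratio per M reads was 0.607 (0.471 to 0.780), 1.04 of the median. The region in intron 1 was 1053 bp wide with 67 fragments in siCONT and 1002 bp wide with 51 fragments in siDLEU1, a ratio of 0.556 (0.379 to 0.812). Both ratios lay close to the median of all shared regions.

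The gap between the flanking H3K27ac regions was 235 bp in siCONT and 286 bp in siDLEU1, and that between the H3K4me3 regions 596 and 236 bp. In all 4 lists, 5 of the 8 annotated HMMR TSSs lay in it. The strongest H3K4me3 region ranked at 93.9 in siCONT and 97.4 in siDLEU1, with 161 and 135 fragments, a ratio of 1.07 (0.844 to 1.35). The H3K4me3 covered length was 4.60 kb in siCONT and 3.14 kb in siDLEU1. The difference includes 3 short regions of 204, 326 and 381 bp in intron 16 that were called in siCONT only. Of the 32-base words of the intron 1 regions, 13.4% (H3K27ac) and 17.7% (H3K4me3) occur elsewhere in the genome.

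Of the 3 synthases, only HAS3 had a region. HAS1 (chr19:52216365-52227244, minus strand) had no region in its 15.9 kb window, and the nearest regions in all 4 lists, 19.2 to 19.3 kb downstream, lay within 1 kb of a TSS of SPACA6. HAS2, usually the most active synthase in mesenchymal cells, had no region in its 34.3 kb window. The nearest H3K27ac regions were 307 kb away in both lists, and the nearest H3K4me3 regions, of 311 and 330 bp, were 83.0 kb upstream in siCONT and 101 kb in siDLEU1. The lists do not show signal below the threshold for calling, so no region does not mean no signal.

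HAS3 (chr16:69139556-69152622, plus strand), the synthase often found in epithelial cells, was the member with the lowest covered length ratio in both marks as the regions were called. In siCONT cells, H3K27ac formed a region of 610 bp from 69139515 to 69140124 and one of 1621 bp from 69140338 to 69141958, at percentiles 23.4 and 82.0. In siDLEU1 cells the same regions were 176 and 1096 bp wide, at percentiles 9.70 and 41.1. The covered length was 2231 bp in siCONT and 1272 bp in siDLEU1, a ratio of 0.570, which was 0.676 over regions with −log10 q at or above 10 and then short of 1.5-fold. The summit of the larger region held 108 fragments in siCONT and 70 in siDLEU1, which is 5.03 and 2.38 per M reads and a ratio of 0.473 (0.345 to 0.645). This is 0.810 of the median (0.591 to 1.10), so its interval includes the median, and 10.6% of shared regions had a lower ratio. The smaller region had 44 and 28 fragments, a ratio of 0.465 (0.279 to 0.764). By fragments, the strongest region ranked at 71.7 in siCONT and 51.5 in siDLEU1, so HAS3 ranked lower in siDLEU1 by both measures. The background at the summit of the larger region was 1.0 and 2.28 times that of the genome, and its part in the change of -40.9 points was not tested.

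In H3K4me3, HAS3 had regions of 963 and 1520 bp in siCONT, at percentiles 64.1 and 69.8, and regions of 577, 500 and 315 bp in siDLEU1, at 46.8, 27.8 and 29.4. The covered length was 2483 bp in siCONT and 1392 bp in siDLEU1, a ratio of 0.561. With regions within 1 kb stitched it was 0.840, above HMMR (0.630), HYAL2 (0.733) and HYAL1 (0.780), so the 1.5-fold call and the rank among members in H3K4me3 depended on how the regions were split. The rank also depended on the window. Over gene bodies HYAL1 was lower than HAS3 in H3K27ac (0.423 against 0.581) and in H3K4me3 (0.584 against 0.664). The fragment ratios of the 2 siCONT regions of HAS3 were 0.813 (0.544 to 1.20) and 0.734 (0.467 to 1.14), both with intervals that include 1. These are 0.717 (0.480 to 1.06) and 0.648 (0.412 to 1.01) of the median, so both intervals also include the median. Lower ratios were found in 16.7% and 10.8% of shared regions. In both marks and both libraries a gap of 213 to 269 bp, holding 2 of the 5 annotated TSSs, separated the regions.

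**Figure D3:**
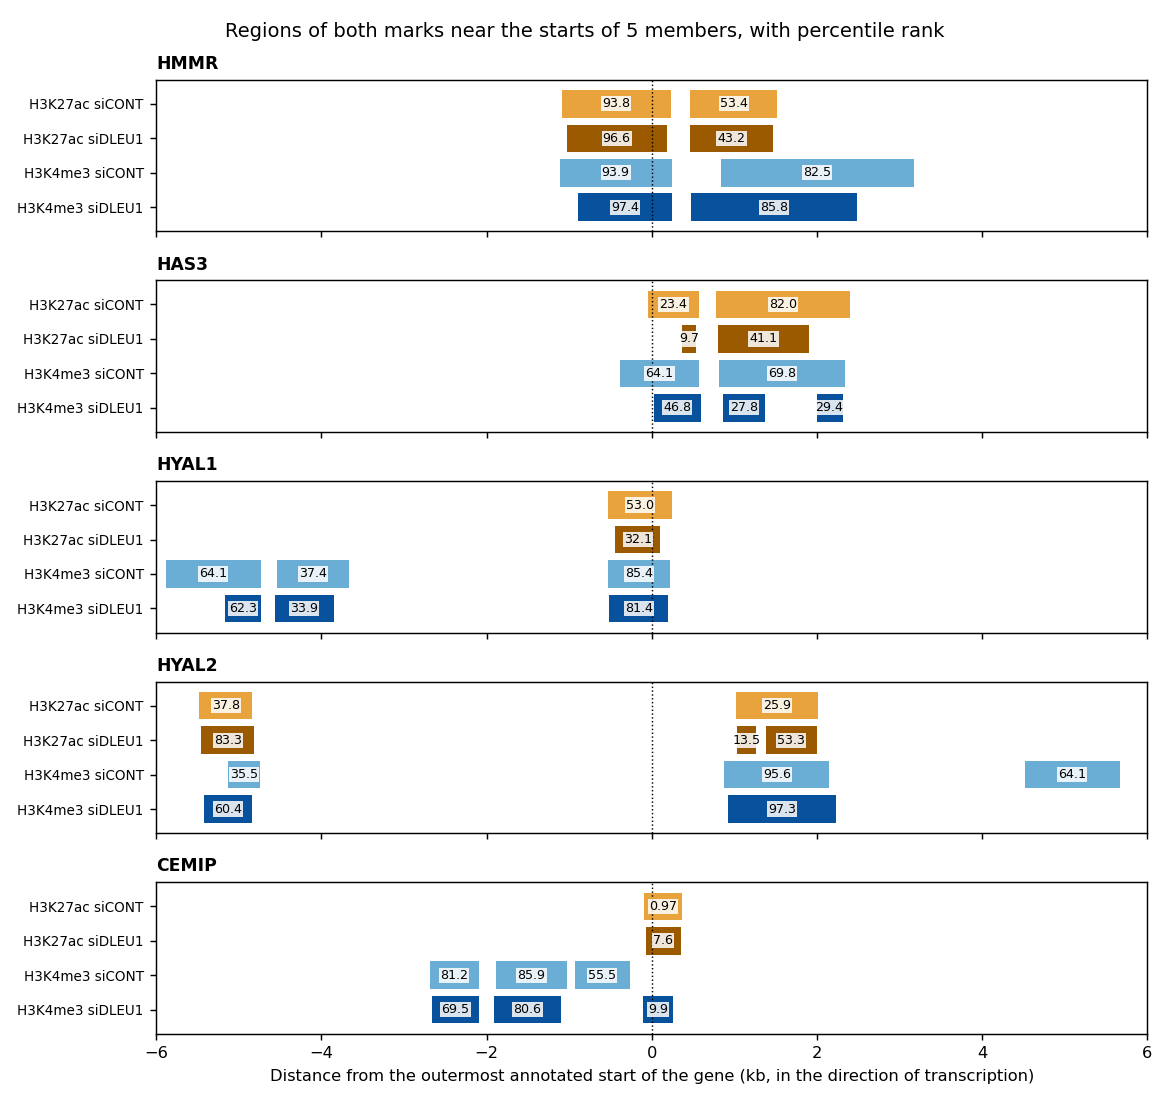
Regions near the start of the 5 other members with regions, in H3K27ac (orange, brown) and H3K4me3 (light and dark blue) for siCONT and siDLEU1, with distance from the outermost annotated start in kb on the x axis and the percentile rank written on each region. The HAS3 regions were narrower in siDLEU1 in both marks, the regions of HMMR lay on both sides of a gap just past its outermost start, and the HYAL2 mark lay inside the gene.

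HYAL1 (chr3:50337321-50349812, minus strand), a lysosomal hyaluronidase, carried its marks at the outermost annotated start and not at the canonical TSS at 50341005. The H3K27ac region ran from 50349567 to 50350341 (775 bp) in siCONT, at percentile 53.0 with 90 fragments, and from 50349709 to 50350256 (548 bp) in siDLEU1, at 32.1 with 61 fragments. The ratio per M reads was 0.495 (0.352 to 0.693), 0.847 of the median. By fragments it ranked at 60.0 and 42.1. Of the 32-base words in this region, 88.4% occur elsewhere on chromosomes 1 to 22 and X, at a median of 32 copies, and for the H3K4me3 region there it was 92.2% at a median of 45 copies. How reads that fit several places were treated is not given in the sources used here, and how many of the fragments at the HYAL1 start belong to other copies was not tested. The H3K4me3 region at the start ranked at 85.4 in siCONT and 81.4 in siDLEU1, with 118 and 95 fragments, a ratio of 1.03 (0.775 to 1.36). Another H3K4me3 region at the end of the HYAL1 gene lay within 1 kb of starts of HYAL3 and NAA80, and had 90 and 65 fragments. The siCONT H3K4me3 region from 50354547 to 50355697 lay in the windows of both HYAL1 and HYAL2 and was counted once in the totals.

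HYAL2 (chr3:50355221-50360213, minus strand), a membrane-anchored hyaluronidase of the cell surface, was marked inside the gene, near an internal TSS. The H3K27ac region ran from 50358196 to 50359196 in siCONT, at percentile 25.9 with 72 fragments. In siDLEU1 it was split into regions of 609 and 234 bp, at percentiles 53.3 and 13.5, and the strongest had 59 fragments. The ratio per M reads was 0.599 (0.417 to 0.856), 1.02 of the median. The background at the summit was 4.02 times that of the genome in siCONT and 1.0 times in siDLEU1, and by fragments the region ranked at 47.8 and 39.9. In siDLEU1 HYAL2 thus ranked higher by fold enrichment and lower by fragments. The difference of 45.5 points in the whole window came from another region, at the start of TUSC2, which had 98 and 95 fragments and backgrounds of 4.02 and 1.20 times the genome. In H3K4me3, the HYAL2 region was 1273 bp wide in siCONT, at percentile 95.6 with 176 fragments, and 1312 bp wide in siDLEU1, at 97.3 with 184 fragments. The ratio was 1.33 (1.08 to 1.65), 1.18 of the median.

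CEMIP (chr15:81071684-81244117, plus strand) had the weakest H3K27ac of the 6 members with regions. A single region lay over its start, 465 bp wide in siCONT at percentile 0.967 and 428 bp wide in siDLEU1 at 7.60, with 32 fragments in each. The ratio per M reads was 0.730 (0.433 to 1.23), which is within counting error of 1 and of the median. The background at the summit was 4.02 times that of the genome in siCONT and 1.61 times in siDLEU1. By fragments the region ranked at 16.8 in siCONT and 7.54 in siDLEU1. In siDLEU1 CEMIP thus ranked higher by fold enrichment and lower by fragments. In H3K4me3, the strongest regions lay upstream of the gene, and not over the start. In siCONT they were 592, 859 and 665 bp wide, at percentiles 81.2, 85.9 and 55.5. In siDLEU1, regions of 564 and 818 bp remained, at 69.5 and 80.6, the region of 665 bp was not called, and a region of 369 bp over the start was called at percentile 9.89. The fragment ratios of the 2 upstream regions called in both lists were 0.807 (0.554 to 1.16) and 0.938 (0.674 to 1.3). Within 1 kb of a CEMIP TSS alone, the H3K4me3 covered length ratio was 0.555 and the percentile change -45.6 points. Both values set the siCONT region of 665 bp against the siDLEU1 region of 369 bp, which do not overlap.

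Of the H3K27ac regions, 8 of 9 in siCONT and 10 of 10 in siDLEU1 overlapped H3K4me3, the exception being CEMIP, against 88.6% and 93.7% of the lists. Of the H3K4me3 regions, 8 of 42 and 9 of 33 overlapped H3K27ac, against 33.1% and 27.3%. CD44 held most of these regions, and without it the counts were 7 of 16 (43.8%) and 8 of 14 (57.1%), both above the list shares. In the plot of summit ratios, with 1 region per member and mark, the intervals of all 6 members overlap the 5th to 95th percentile range of the shared regions. That range was 0.436 to 0.856 in H3K27ac and 0.626 to 2.51 in H3K4me3. Wide intervals rarely miss so broad a range, so nothing is concluded from the overlap. Among CD44 H3K4me3 regions not in the plot, ratios ran from 0.505 (0.289 to 0.851) to 4.89 (3.39 to 7.23). The highest set a siCONT region with 37 fragments against the 6215-bp siDLEU1 region with 142 fragments. The siDLEU1 summit lay outside that siCONT region, so this ratio does not compare a single site.

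**Figure D4:**
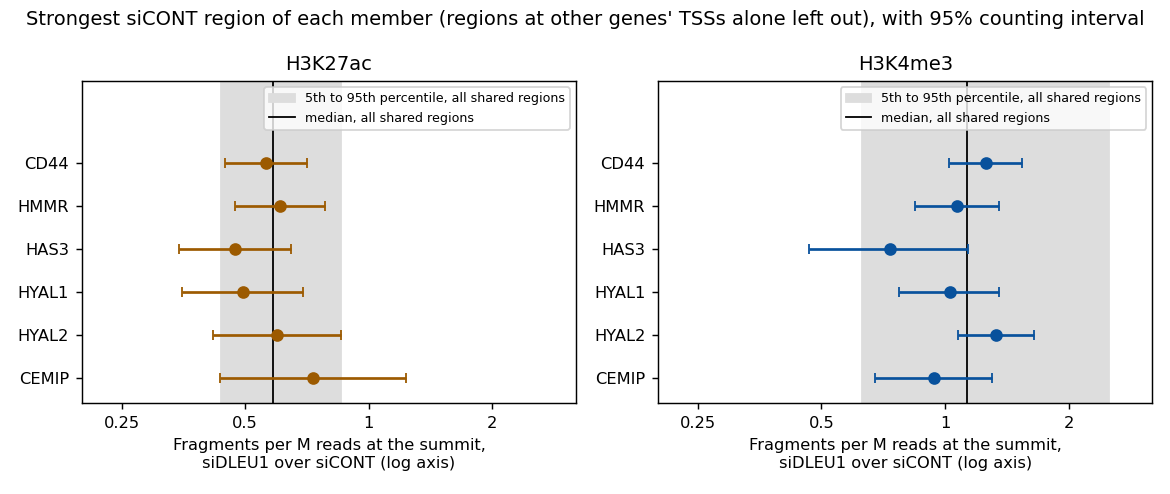
Ratio of fragments per M reads at the summit, siDLEU1 over siCONT (log x axis), for the siCONT region of highest percentile of each of 6 members in H3K27ac (left) and H3K4me3 (right), with regions at the starts of other genes alone left out. Points are ratios of single libraries, bars 95% counting intervals, the line the median of all shared regions (0.584 and 1.13) and the grey band their 5th to 95th percentile; HAS3 is the lowest member in both marks.

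Of 48 other genes of hyaluronan and CD44 biology, 26 had H3K27ac in siCONT and 25 in siDLEU1, and 32 and 30 had H3K4me3. Of all 24135 genes, 14369 and 13469 had H3K27ac, and 15427 and 15574 had H3K4me3. In H3K27ac, 7 of 26 had a covered length at least 1.5-fold lower, against 32.3% of all genes, and 0 a higher one, against 0.652%. The median ratio was 0.782 among those covered in both lists and 0.776 over all genes. In H3K4me3, 10 of 32 were lower, against 16.9% of all genes, and 3 were higher, against 10.3%, with a median of 0.787 beside 0.902 over all genes. All 7 genes of precursor supply carried both marks in both libraries. Of 15 genes listed under hyaluronan-binding matrix and link proteins, 2 had H3K27ac, HABP4 and C1QBP. The other genes of that list, with all its proteoglycan and link protein genes, had none. Among genes with at least 500 bp of H3K27ac in siCONT, the lowest ratios were those of CEMIP2, a hyaluronidase of the cell surface (2069 and 1078 bp, 0.521), ADAM10 and ADAM17, sheddases that cleave CD44 among other proteins (0.531 and 0.553), and RDX, which encodes radixin, a linker of CD44 to actin (0.588). The highest were those of UGDH, which makes the UDP-glucuronic acid used by the synthases (0.949), MMP14 (0.949), SLC7A11 (0.977) and HEXA (1.01). HAS2-AS1, the antisense RNA gene of HAS2, had no H3K27ac and had 550 bp of H3K4me3 in siCONT and 785 bp in siDLEU1. These were 2 regions in each list, the strongest at percentiles 17.3 and 36.9. They lay far from the HAS2 start, which had no H3K4me3 region within 83.0 kb in siCONT or 101 kb in siDLEU1.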

How the data were processed

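ChIP-seq libraries of H3K27ac and H3K4me3 from HSC3 cells were compared, 1 per siRNA and mark; 2 input libraries were not analysed here. Reads were from an Ion Proton; per the paper's methods, bowtie2 was used by the authors for alignment (hg19) and MACS2 for peaks, whose settings are not given in the sources used here. The deposited lists hold, per region, the fold ratio over local background, the −log10 of p and q from the authors' MACS2, a display score of the deposited files, which was not used, and the distance to the summit.

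Regions on chromosomes 1 to 22 and X were set against GRCh37 and GENCODE v44lift37 (24135 genes with a curated RefSeq transcript). No region ended past its chromosome. Windows were gene bodies plus 5 kb upstream, and overlap was at least 1 bp. Summit fragments were recovered from fold enrichment and p, and this step was tested on data simulated with the same formula (100% of 3982 peaks exact). The overlap of regions was tested on 5000 simulated regions (0 wrong). For library sizes, a genome of 2.7 Gb was assumed and the shortest region of each list was taken as the fragment length. The library sizes, on which the ratios per M reads rest, were not tested. Ratio intervals are exact conditional binomial and, like the Wilson intervals, cover counting error only. No p-value was computed. Upstream sequences of the other members are not reported here. Called means a 1.5-fold change in covered length or 10 percentile points.

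The members and lists were chosen with earlier results of these data known. Genes named were the 8 members, the 4 pathway genes at each end of the H3K27ac covered length ratio (at least 500 bp in siCONT), the 5 closest to CD44, neighbours whose TSS lies in a member region, and genes chosen after their values were seen, HAS2-AS1, LYVE1, HYAL4, HABP4 and C1QBP. As alternatives, a −log10 q minimum of 10, stitching within 1 kb, equal numbers of regions, the gene body, 1 kb around TSSs, a 50% overlap, and ranks by −log10 p or by fragments were tried. Leaving out CD44, HYAL1 or HAS3 was added after the data were seen. Python 3.11.15, numpy 2.4.6, pandas 2.3.3, scipy 1.17.1 and matplotlib 3.10.9 were used.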

Additional observations from a re-analysis of the deposited data

How the results depend on the processing

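The whole lists covered fewer bases in siDLEU1, 12.4 against 17.3 Mb in H3K27ac and 41.4 against 45.2 Mb in H3K4me3. A ratio over all genes was not run under the alternatives. The covered length ratio of the member windows stayed below 1 under every alternative run. For H3K27ac it was 0.771 with a −log10 q of at least 10, 0.869 with regions stitched, 0.884 with equal numbers of regions, 0.829 over gene bodies, 0.815 around TSSs, 0.782 without CD44, 0.849 without HYAL1 and 0.930 without HAS3. For H3K4me3 the same settings gave 0.892, 0.870, 0.880, 0.899, 0.819, 0.708, 0.878 and 0.893. The median percentile change in H3K27ac was -19.2 with the stricter q, -6.20 stitched, -3.86 with equal numbers, -1.61 ranked by −log10 p and -5.28 by fragments. It was 2.83 without CD44, without HYAL1 or without HAS3. This was fixed in advance because by fold enrichment these ranked lower and HMMR, CEMIP and HYAL2 higher. In H3K4me3 it was -4.35, -3.77, -2.47, -1.96 and -2.00 under the same 5 settings, -4.04 without CD44 and -1.37 without HYAL1 or without HAS3, and reversed to 0.166 over gene bodies. The share of H3K4me3 regions overlapped was 45.2% (siCONT) and 57.6% (siDLEU1) with an overlap of 50% of both regions, and the siDLEU1 share was 93.8% when stitched. For H3K27ac, 6 of 7 siCONT regions were overlapped with the stricter q, and 9 of 10 siDLEU1 regions with equal numbers. With an overlap of 50% of both regions the H3K27ac counts were 8 of 9 and 8 of 10. In all other cases every H3K27ac region was overlapped. Among single genes, 0 called values reversed, 4 calls were lost and 7 gained. Reversal was counted only for values called in the main setting. Some values not called there changed direction. Among them were the CEMIP H3K27ac rank by fragments (-9.25) and its H3K4me3 rank over gene bodies (9.89). Around TSSs the H3K4me3 covered length ratios of HMMR (1.14) and HYAL2 (1.03) were above 1. HAS3 lost its H3K27ac covered length call with the stricter q (0.676) and its H3K4me3 call when stitched (0.840), and CD44 its H3K27ac rank call by −log10 p (-7.19) and by fragments (-1.30). Covered length calls were gained by HYAL1 in H3K27ac over gene bodies (0.423) and with the stricter q (no siDLEU1 region left) and in H3K4me3 over gene bodies (0.584), by HMMR in H3K4me3 stitched (0.630) and over gene bodies (0.645), and by CEMIP in H3K4me3 around TSSs (0.555, with -45.6 points in rank). The CEMIP values compare regions that do not overlap. The cause of these shifts was not tested. No paired analysis was possible because each siRNA and mark has 1 library, and for the same reason no replicate could be left out.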

Other observations

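LYVE1, a hyaluronan receptor of lymphatic endothelium, was singled out after its values were seen: its H3K4me3 covered length was 408 bp in siCONT and 3533 bp in siDLEU1, with no H3K27ac in either list. HYAL4, likewise chosen after its values were seen, had 1277 bp of H3K4me3 in siCONT and 378 bp in siDLEU1 and no H3K27ac.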
